A study of Mus musculus with 6 samples.

Results

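The collagen family of the mouse cochlear modiolus was described on expression arrays, as every gene whose symbol reads Col, a number, a, and a number. A probe set, the group of short probes that reports 1 transcript region, was used only if it was annotated to a single gene. Each gene was represented by its brightest probe set, judged by the mean signal of the 6 arrays. The rule gave 40 collagen genes of 18193 genes with such a probe set, with 77 probe sets among them. The type I collagen genes were left out and not analysed here.

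The modiolus forms the bony axis inside the cochlea and carries the auditory nerve, the spiral ganglion and blood vessels. Modioli of 6 CBA/CaJ mice were measured on 1 array each, both ears of a mouse pooled. The 3 noise-exposed mice had been placed at 4 weeks of age in a 5 to 20 kHz noise band at 110 dB SPL for 5 h, and were dissected at 8 weeks. The 3 unexposed mice were kept in the holding room and dissected at the same age. All noise-exposed mice were female, came from a single litter and were dissected on the first of 2 days. Unexposed mouse 1 was a male dissected on the first day, unexposed mouse 2 a female and unexposed mouse 3 a male of the second day, each of a different litter. Group and litter therefore cannot be told apart, and group overlaps with sex and day. The total RNA of a mouse ranged over 10 to 18 ng in the noise-exposed and 8 to 21 ng in the unexposed group, and was linearly amplified before labelling.

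Collagens are secreted or membrane-bound proteins whose chains wind into trimers, and they form much of the extracellular matrix. Fibrillar collagens build the ropes of cartilage and connective tissue, while FACIT collagens (fibril-associated collagens with interrupted triple helices) decorate the surface of such fibrils. Type IV collagen forms the sheet of every basement membrane, including those around vessels, Schwann cells and epithelia of the cochlea. Types II, IX and XI occur together in cartilage and in the tectorial membrane of the cochlea.

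The promoter windows of 4 members are shown, those of a head-to-head gene pair and those of the genes at both ends of the range of differences. They come from RefSeq (GRCm38.p6), and each runs over 300 bases, with 250 before and 50 after the annotated start. Col4a1 and Col4a2 encode the partner chains of the common type IV collagen and lie head to head, with starts 21 bases apart on opposite strands. Their windows, chr8:11312777-11313076 on the minus strand and chr8:11312555-11312854 on the plus strand, share 78 bases, which are in capitals on each strand.
Col4a1: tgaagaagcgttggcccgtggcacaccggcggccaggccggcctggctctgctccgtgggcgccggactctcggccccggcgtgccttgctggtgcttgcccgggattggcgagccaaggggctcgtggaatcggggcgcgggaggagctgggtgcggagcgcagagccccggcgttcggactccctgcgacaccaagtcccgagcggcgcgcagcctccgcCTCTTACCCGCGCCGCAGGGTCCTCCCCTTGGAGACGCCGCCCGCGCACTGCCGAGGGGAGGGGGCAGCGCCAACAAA
Col4a2: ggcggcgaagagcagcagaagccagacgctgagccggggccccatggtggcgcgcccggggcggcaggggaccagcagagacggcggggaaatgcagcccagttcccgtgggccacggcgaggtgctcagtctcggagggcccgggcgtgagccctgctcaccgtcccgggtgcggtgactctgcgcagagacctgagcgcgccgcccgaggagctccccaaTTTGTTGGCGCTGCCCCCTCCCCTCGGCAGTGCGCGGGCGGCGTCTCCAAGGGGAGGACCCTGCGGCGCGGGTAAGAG

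Col11a1 had the largest positive and Col13a1 the largest negative difference of the family between the groups. Their windows are chr3:114030290-114030589 on the plus strand and chr10:61979059-61979358 on the minus strand, with capitals at matches to the 4 motifs searched.
Col11a1: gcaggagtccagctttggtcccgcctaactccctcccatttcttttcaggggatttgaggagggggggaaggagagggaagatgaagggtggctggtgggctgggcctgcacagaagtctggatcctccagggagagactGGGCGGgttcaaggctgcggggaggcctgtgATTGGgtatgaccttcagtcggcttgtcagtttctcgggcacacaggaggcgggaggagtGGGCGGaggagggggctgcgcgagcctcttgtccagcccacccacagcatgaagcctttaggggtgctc
Col13a1: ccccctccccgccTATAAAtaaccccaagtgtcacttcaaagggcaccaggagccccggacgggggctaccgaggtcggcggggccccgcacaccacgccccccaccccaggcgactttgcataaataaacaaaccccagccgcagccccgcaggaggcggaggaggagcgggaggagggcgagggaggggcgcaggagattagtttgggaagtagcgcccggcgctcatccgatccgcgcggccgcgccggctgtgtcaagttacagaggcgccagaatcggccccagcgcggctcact

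The motifs were the GC box with the letters GGGCGG, the CCAAT box, the TATA box with the letters TATAAA, and the SOX core with the letters AACAAT. Each was read on both strands, and none of them contains another. In the Col11a1 window GGGCGG stood 2 times and ATTGG, the reverse complement of CCAAT, 1 time. The Col13a1 window held 1 TATAAA, near the beginning of the window and thus far before the annotated start. A window was found for 32 of the 40 collagen genes, with 35 windows in all. GGGCGG occurred in 21 of them (60%), against 35.7% of all 32851 windows of this length. CCAAT was found in 12 collagen windows (34.3%, against 37.4% of all), TATAAA in 5 (14.3%, against 13.6%) and AACAAT in 1 (2.86%, against 10.7%). The collagen windows had a median GC content of 59.7%, and all windows 52.7%. These are matches of letters and no measurement of binding.

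The deposited values are log2 signals, and a probe set was taken as above background if it exceeded 4.25, the cutoff of the authors' deposited code. Between 24671 and 25069 of 45101 probe sets passed it on a noise-exposed array and between 24850 and 25371 on an unexposed array. Correlations across probe sets ranged from 0.988 to 0.991 between noise-exposed arrays and from 0.975 to 0.984 between unexposed arrays. Signals of different probe sets depend on their probes, so levels are compared between mice and not between genes. The nervous tissue of the label was represented by neuronal markers (6 of 7 above the cutoff on every array) and Schwann cell and satellite glia markers (4 of 4). Markers of skeletal muscle were not above the cutoff for 5 of 6 genes. Genes listed as markers of other cochlear tissue also passed on every array. These were 4 of 7 for spiral ligament and stria vascularis and 3 of 8 for the organ of Corti. The other 5 organ of Corti genes were below the cutoff on every array.

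Of the 40 collagen genes, 28 (70%) exceeded the cutoff on all 6 arrays, beside 60.2% of all 18193 genes. A further 3, Col11a2, Col9a2 and Col22a1, did so on 5 arrays. Col4a3 passed on 2 arrays, both unexposed, and Col4a6 on 1 unexposed array. There were 7 genes below the cutoff on every array. They were Col5a3, a minor type V chain, Col6a4, Col6a5, Col26a1, Col7a1 of the anchoring fibrils of skin, Col10a1 of hypertrophic cartilage, and Col17a1 of the hemidesmosomes of epithelia. Detection by class was 7 of 9 for fibrillar, 4 of 6 for basement membrane, 7 of 9 for FACIT and 3 of 6 for beaded filament collagens and their relatives. It was 2 of 3 for short chain network, 3 of 4 for transmembrane and 2 of 2 for multiplexin collagens, and 0 of 1 for anchoring fibril collagen. The undetected genes stayed low in both groups, with Col10a1 at 3.56, 3.18 and 3.09 in noise-exposed mice and 3.34, 3.45 and 3.18 in unexposed mice.

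**Figure D1:**
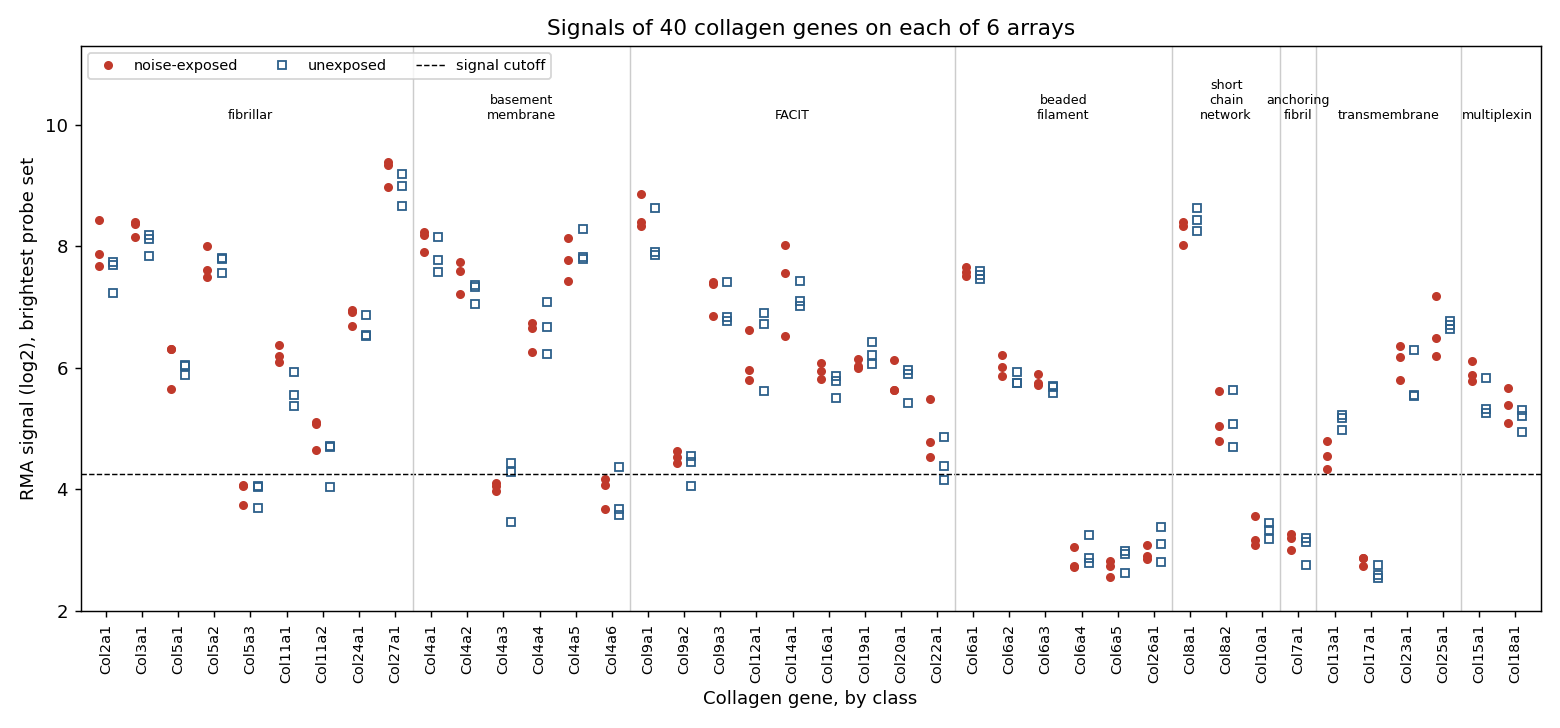
Log2 signal of the brightest probe set of each of the 40 collagen genes on each of 6 arrays, noise-exposed as filled circles left of unexposed as open squares, grouped by collagen class, with the cutoff of 4.25 as a dashed line. The 28 genes above the line on all arrays include members of every class except the anchoring fibril, and for most genes the symbols of both groups overlap.

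The comparison of noise-exposed with unexposed modioli asks whether collagen transcripts differed 4 weeks after the noise. No collagen gene passed the test. In limma, with p-values adjusted by Benjamini-Hochberg over all 25200 tested probe sets, 0 probe sets (0%) were called at an adjusted p of 0.05, while 1781 had an unadjusted p under 0.05. A gene was tested if its probe set was above the cutoff on at least 3 arrays, which left 31 of 40 collagen genes, beside 65.2% of all 18193 genes (11858). The lowest adjusted p of a collagen gene was 0.667. At an unadjusted p under 0.05, 2 collagen genes were higher (Col11a1 and Col15a1), beside 4.98% of all genes, and 1 was lower (Col13a1), beside 1.21%. In bulk tissue, fewer cells of a type and less RNA per cell cannot be told apart.

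The collagen differences leaned to the positive side. The noise-exposed mean was the higher one for 23 of 31 collagen genes (74.2%) and the lower one for 8, whereas 63.3% of all genes had a higher noise-exposed mean. The median log2 difference, noise-exposed minus unexposed, was 0.21 over the collagen genes and 0.07 over all genes. These values depend on the use of the brightest probe set. With the mean of all tested probe sets of a gene, the collagen median was 0.13. Over all 25200 tested probe sets, 56.3% had a higher noise-exposed mean and the median was 0.04. The median SD between mice was 0.259 in the noise-exposed and 0.262 in the unexposed group for collagen genes, and over all genes 0.162 in the noise-exposed and 0.222 in the unexposed group. Every noise-exposed array lay above every unexposed array for 2 collagen genes, Col11a1 and Col6a3, beside 10.4% of all genes. For 1, Col13a1, every noise-exposed array lay below, beside 3.41% of all genes.

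**Figure D2:**
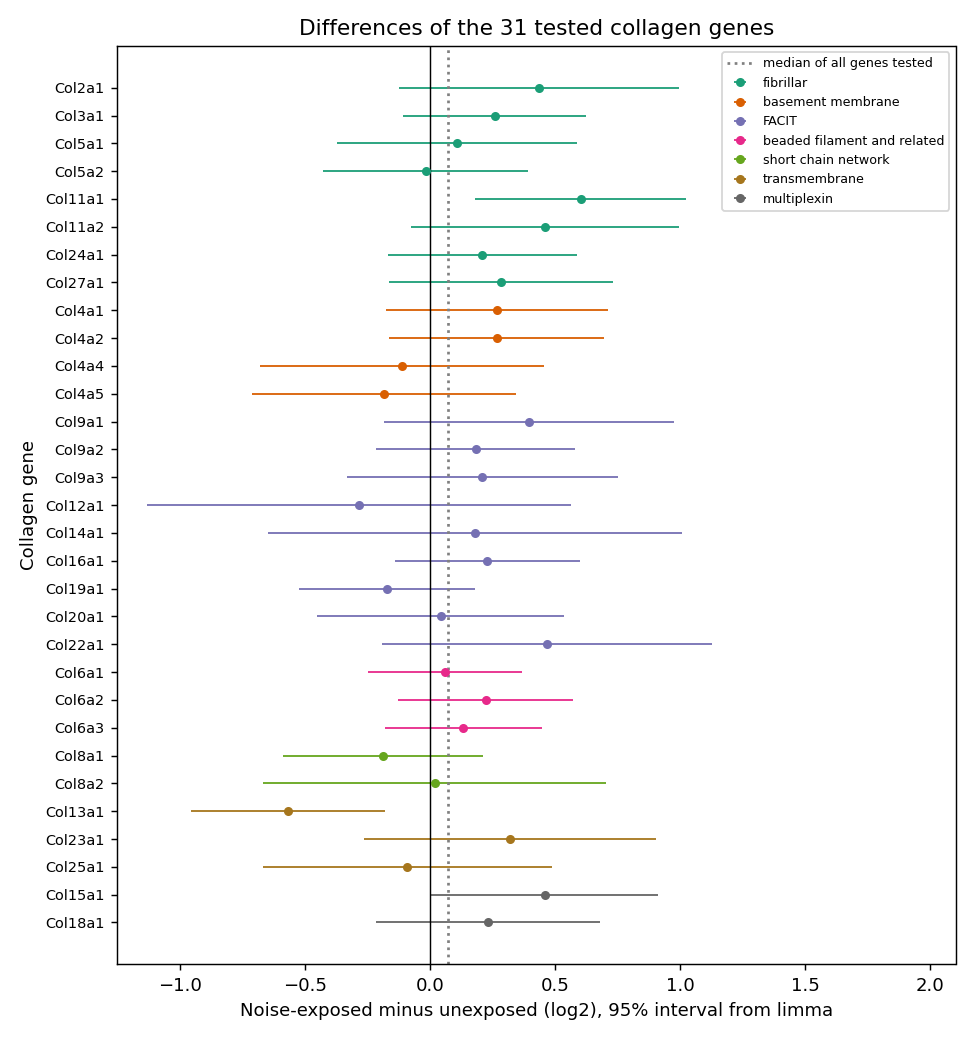
Log2 difference, noise-exposed minus unexposed, of the 31 tested collagen genes with the 95% interval from limma, coloured by class, and the median of all tested genes as a dotted line. Points lie between -0.57 for Col13a1 and 0.60 for Col11a1, and the intervals of Col11a1, Col15a1 and Col13a1 are the ones that leave out 0.

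Among the fibrillar collagens, 7 of 8 tested genes had a higher noise-exposed mean, with a median difference of 0.27. Col11a1, the type XI chain that starts and narrows cartilage fibrils, measured 6.20, 6.10 and 6.38 in noise-exposed mice and 5.38, 5.93 and 5.56 in unexposed mice. All 3 noise-exposed values stood above all 3 unexposed values. The difference was 0.60 (SE 0.18, 95% interval 0.18 to 1.02), with an unadjusted p of 0.0114 and an adjusted p of 0.667 in limma. The other Col11a1 probe set had a difference of 0.46, and there the groups overlapped.

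Col11a2, its partner chain, had signals of 5.11, 4.64 and 5.07 in noise-exposed and 4.69, 4.71 and 4.04 in unexposed modioli, a difference of 0.46 (SE 0.23). Noise-exposed mouse 2 lay within the unexposed values, and unexposed mouse 3 was below the cutoff. Col2a1, the main chain of cartilage fibrils, read 8.44, 7.88 and 7.67 in noise-exposed mice against 7.75, 7.70 and 7.23 in unexposed mice. Its difference was 0.44 (SE 0.24, adjusted p = 0.718 in limma), and noise-exposed mouse 3 lay between the unexposed mice.

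Col3a1, the fibril collagen of vessel walls and soft connective tissue, gave 8.41, 8.15 and 8.37 in noise-exposed and 8.18, 8.12 and 7.85 in unexposed mice, a difference of 0.26 (SE 0.16). The groups overlapped through noise-exposed mouse 2 alone. For its second probe set the difference was -0.25, of the opposite sign. Col5a1, a type V chain that helps start fibrils, measured 6.32, 5.65 and 6.31 in noise-exposed and 5.88, 6.04 and 6.03 in unexposed mice (difference 0.11, SE 0.21). Noise-exposed mouse 2 was the lowest of all 6 mice for it. Col5a2, the other type V chain, read 8.00, 7.51 and 7.61 in noise-exposed against 7.57, 7.79 and 7.81 in unexposed mice, with a difference of -0.02 (SE 0.18).

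Col27a1, a fibrillar collagen of cartilage, measured 9.33, 9.40 and 8.97 in noise-exposed and 9.00, 9.19 and 8.67 in unexposed mice. Its difference was 0.28 (SE 0.19), and its second probe set gave 0.21. Col24a1, a fibrillar collagen of developing bone, had a difference of 0.21 (SE 0.16). Both groups overlapped for each of these genes.

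Of the FACIT collagens, 7 of 9 tested genes had a higher noise-exposed mean, with a median difference of 0.18. The type IX chains, which sit on type II fibrils, come first. Col9a1 measured 8.86, 8.33 and 8.40 in noise-exposed and 8.63, 7.86 and 7.91 in unexposed mice, a difference of 0.40 (SE 0.25). Unexposed mouse 1, the one dissected on the same day as the noise-exposed mice, was within their range, and the other 2 were below it. A dim second probe set of Col9a1, above the cutoff on 3 arrays, had a difference of -0.16.

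Col9a2 read 4.63, 4.54 and 4.44 in noise-exposed against 4.56, 4.45 and 4.06 in unexposed mice, close to the cutoff throughout (difference 0.18, SE 0.17). Col9a3 read 7.42, 6.86 and 7.37 in noise-exposed against 6.84, 7.41 and 6.77 in unexposed mice, with a difference of 0.21 (SE 0.23) and of 0.48 (SE 0.23) for its second probe set. Here 1 mouse of each group stood with the other group.

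The 6 genes of types II, IX and XI, grouped after their values had been seen, all had a higher noise-exposed mean. Expressed as the deviation from the unexposed mean of each gene, their median was 0.60, 0.19 and 0.32 on the noise-exposed arrays. It was 0.20, 0.19 and -0.27 on the unexposed arrays. Noise-exposed mouse 2 was therefore close to unexposed mice 1 and 2, and unexposed mouse 3 stood lowest. Over all 31 collagen genes the same median was 0.28, 0.07 and 0.24 on noise-exposed arrays and -0.06, 0.11 and -0.12 on unexposed arrays, and over all genes it stayed between -0.05 and 0.11.

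**Figure D3:**
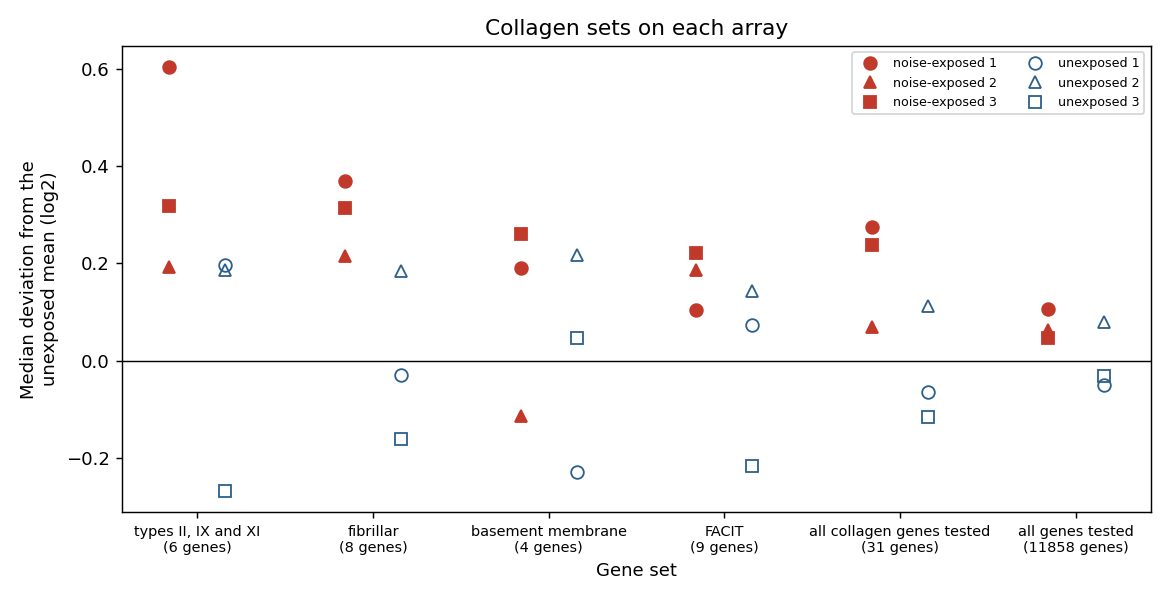
Median deviation from the unexposed mean (log2) of gene sets on each array, noise-exposed as filled symbols left of unexposed as open symbols, with a symbol shape for each replicate number. Noise-exposed mice 1 and 3 lie above all unexposed mice for types II, IX and XI (0.60 and 0.32), and noise-exposed mouse 2 (0.19) lies among them.

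The FACIT collagens of other tissues overlapped between groups. Col12a1, found on fibrils of dense connective tissue, had a difference of -0.28 (SE 0.36). Col14a1, its relative, had a difference of 0.18 (SE 0.36), with noise-exposed mice spread over 8.02, 7.56 and 6.52 and unexposed mice at 7.43, 7.02 and 7.11. A second Col14a1 probe set measured 6.64, 6.16 and 6.38 in noise-exposed and 5.71, 6.11 and 5.92 in unexposed mice, without overlap. Its difference was 0.48 (SE 0.18, unadjusted p = 0.029 and adjusted p = 0.697 in limma), and the remaining probe set gave -0.07. The 3 probe sets of Col14a1 thus gave different answers. Differences were 0.23 for Col16a1, -0.17 for Col19a1, 0.04 for Col20a1 and 0.47 for Col22a1. The probe sets of Col20a1 and Col22a1 are of the type that can match several transcripts.

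Type IV collagen, the sheet of basement membranes, split by chain, with 2 of 4 tested genes higher and a median difference of 0.08. Col4a1 measured 8.23, 7.91 and 8.18 in noise-exposed and 7.57, 7.78 and 8.15 in unexposed mice, a difference of 0.27 (SE 0.19, adjusted p = 0.755 in limma). Col4a2, whose window shares the 78 capital bases printed above, measured 7.74, 7.21 and 7.60 in noise-exposed and 7.06, 7.36 and 7.33 in unexposed mice. Its difference was also 0.27 (SE 0.18). Both genes had their lowest signal in unexposed mouse 1, and noise-exposed mouse 2 was the lowest of its group in both.

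Col4a4, a chain of the specialised type IV network of kidney and inner ear, read 6.65, 6.27 and 6.75 in noise-exposed against 6.23, 7.09 and 6.68 in unexposed mice (difference -0.11, SE 0.24). Col4a5, the X-linked partner in that network, read 7.43, 7.78 and 8.15 in noise-exposed against 7.79, 8.29 and 7.82 in unexposed mice (difference -0.18, SE 0.23). Both overlapped widely. Col4a3, its remaining chain, was at 3.98, 4.06 and 4.11 in noise-exposed mice and 4.29, 4.43 and 3.46 in unexposed mice, near the cutoff. Col4a6, which pairs with Col4a5 in smooth muscle and epithelia, was at 4.18, 3.67 and 4.07 in noise-exposed and 3.68, 4.36 and 3.58 in unexposed mice.

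Among collagen genes, 7 pairs are direct neighbours in RefSeq's gene order, and in 4 pairs both genes were tested. Col4a1 and Col4a2 had the same difference over all 6 mice, and Col6a2 and Col6a1 were both above 0 (0.22 and 0.06). Col9a1 (0.40) and Col19a1 (-0.17) differed in sign, as did Col3a1 (0.26) and Col5a2 (-0.02).

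The type VI chains, which form beaded microfibrils around cells, were on the positive side in 3 of 3 tested genes, with a median difference of 0.13. Col6a1 measured 7.59, 7.67 and 7.51 in noise-exposed and 7.47, 7.59 and 7.53 in unexposed mice (difference 0.06, SE 0.13). Col6a2 measured 6.02, 5.88 and 6.21 in noise-exposed and 5.93, 5.75 and 5.76 in unexposed mice (difference 0.22, SE 0.15), and its second probe set gave -0.09. Col6a3 measured 5.75, 5.90 and 5.72 in noise-exposed and 5.58, 5.69 and 5.70 in unexposed mice. Its groups did not overlap, yet the lowest noise-exposed and the highest unexposed value were nearly equal, and the difference was 0.13 (SE 0.14, adjusted p = 0.813 in limma).

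Col8a1, a short chain collagen of vessel walls and the cornea, read 8.02, 8.34 and 8.40 in noise-exposed against 8.64, 8.25 and 8.44 in unexposed mice, a difference of -0.19 (SE 0.17). Its partner Col8a2 had a difference of 0.02 (SE 0.29). The groups overlapped for both.

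The multiplexins, which bridge basement membranes and the matrix beneath, were both on the positive side. Col15a1 measured 6.11, 5.89 and 5.79 in noise-exposed and 5.83, 5.33 and 5.25 in unexposed mice. The difference was 0.46 (SE 0.20, 95% interval 0.01 to 0.91), with an unadjusted p of 0.0478 and an adjusted p of 0.704 in limma. Unexposed mouse 1 lay within the noise-exposed values and the other unexposed mice lay below them. Col18a1, the source of the fragment endostatin, gave 5.67, 5.09 and 5.39 in noise-exposed and 5.20, 5.31 and 4.94 in unexposed mice (difference 0.23, SE 0.19).

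Transmembrane collagens are anchored in the cell surface and include the only tested family member with complete separation downward. Col13a1, known from the neuromuscular junction and other adhesion sites, measured 4.79, 4.55 and 4.33 in noise-exposed and 4.98, 5.22 and 5.18 in unexposed mice. Every noise-exposed value was lower than every unexposed value, and all stayed close above the cutoff. The difference was -0.57 (SE 0.17, 95% interval -0.96 to -0.18), with an unadjusted p of 0.00998 and an adjusted p of 0.667 in limma. Col23a1 had a difference of 0.32 (SE 0.25) and Col25a1, a collagen of neurons, of -0.09 (SE 0.25).

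There were 17 collagen genes with several tested probe sets, and in 6 of them the probe sets differed in sign. These were Col14a1, Col19a1, Col23a1, Col3a1, Col6a2 and Col9a1.

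The values of the same-day and same-sex mice bear on the design. Within the first day, with unexposed mouse 1 as the lone control, 22 of 31 collagen genes were on the positive side with a median of 0.16, beside a median of 0.12 over all genes. Col11a1 was at 0.84 and Col4a1 and Col4a2 at 0.53 and 0.46 there, while Col15a1 was at 0.10, Col13a1 at -0.42 and Col9a1 at -0.10. Among females, with unexposed mouse 2 as the lone control, 18 of 31 were on the positive side with a median of 0.05, beside -0.0032 over all genes. There Col11a1 was at 0.29, Col4a1 at 0.33, Col4a2 at 0.15, Col9a1 at 0.67, Col15a1 at 0.60 and Col13a1 at -0.66. Col9a1 changed sign between these comparisons. For Col11a1 and Col13a1, whose groups did not overlap, the sign could not change against any single unexposed mouse. The same holds for Col15a1, whose noise-exposed mean (5.93) exceeded the highest unexposed value (5.83). It also holds for Col4a2 (7.52 against 7.36) and for further genes such as Col2a1 (8.00 against 7.75) and Col11a2 (4.94 against 4.71). The unchanged signs of all such genes are therefore no further evidence. By class, the fibrillar median was lowest among females, at 0.12. The FACIT median was -0.02 on the first day, with 4 of 9 genes on the positive side. The type IV median was 0.39 on the first day and -0.18 among females. The parts of day, sex and litter in these differences were not tested.

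Genes that act with collagens were read from 6 lists, and 0 genes of any list were called in limma. The basement membrane partners, laminins, nidogens, perlecan and agrin, had a higher noise-exposed mean in 12 of 12 tested genes, beside 63.3% of all genes, with a median of 0.23. An unadjusted p under 0.05 was found for 3 of them, beside 4.98% of all genes on the higher side. Lamb1, the laminin beta chain of most basement membranes, measured 9.13, 8.89 and 8.76 in noise-exposed and 8.18, 8.56 and 8.21 in unexposed mice, without overlap (difference 0.61, SE 0.17, adjusted p = 0.667 in limma). Its probe set is of the type that can match several transcripts. The groups were also separate for Lama1 (0.47), Lama2 (0.36), Lama4 (0.31) and Agrn (0.22), which makes 5 of 12 beside 10.4% of all genes. The summed linear signal of the list was 4275 to 4846 in noise-exposed and 3836 to 4049 in unexposed mice, without overlap. Across the alternative settings, 9 to 12 of these genes were on the positive side. The lowest number was found with day as a covariate, where unexposed mouse 1 is the lone control.

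**Figure D4:**
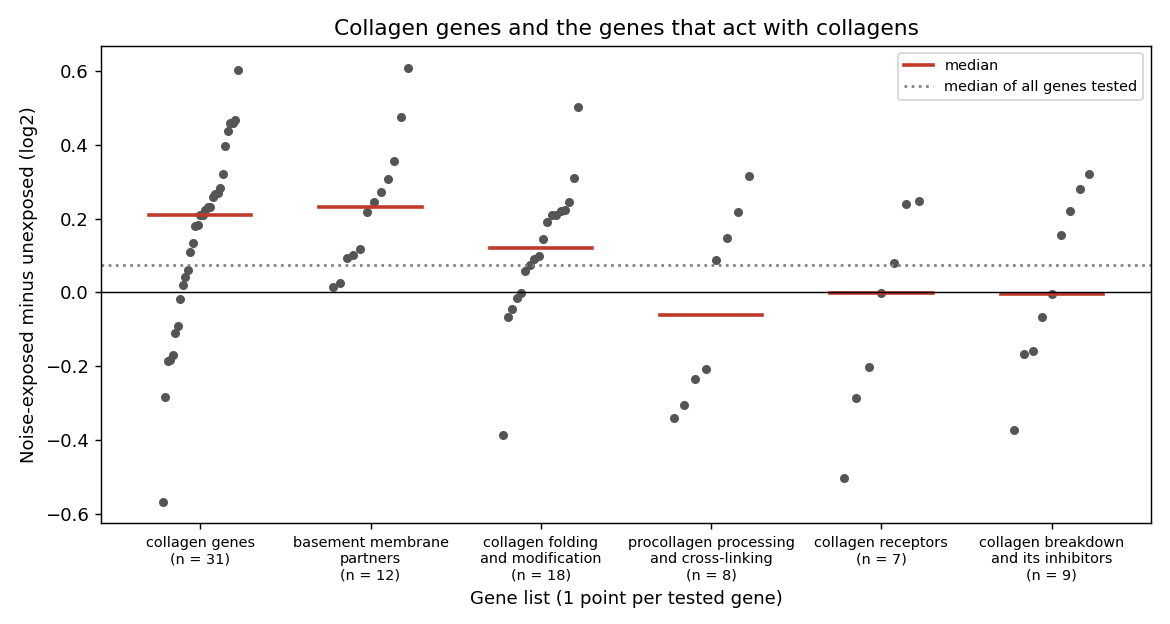
Log2 difference, noise-exposed minus unexposed, of the tested collagen genes and of 5 lists of genes that act with collagens, 1 point per gene, with each median as a bar and the median of all genes as a dotted line. The 12 basement membrane partners all lie above 0, and the processing, receptor and breakdown lists are spread on both sides of it.

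Of the enzymes and chaperones that fold and modify collagen chains, 13 of 18 tested genes were on the positive side (median 0.12). Plod1, a lysyl hydroxylase, measured 6.78, 6.64 and 6.57 in noise-exposed and 6.02, 6.28 and 6.18 in unexposed mice, without overlap (difference 0.50, SE 0.15, adjusted p = 0.667 in limma). Plod1 was the 1 gene of these 18 with separate groups, beside 10.4% of all genes on the higher side. Its relatives gave 0.31 (Plod3) and -0.39 (Plod2), and the proline isomerase Ppib gave 0.19. For procollagen processing and cross-linking 4 of 8 were on the positive side (median -0.06, and 0.03 without noise-exposed mouse 3), with Lox at -0.34, Loxl3 at 0.32, Loxl4 at -0.24 and the N-propeptidase Adamts3 at -0.31. With 1 mouse left out in turn, Lox ranged from -0.61 to -0.01 (-0.01 without noise-exposed mouse 2). Loxl3 ranged from 0.11 to 0.50 and Adamts3 from -0.49 to -0.10, both nearest to 0 without noise-exposed mouse 1. Loxl4 was the 1 tested gene of this list with separate groups, every noise-exposed value being lower, beside 3.41% of all genes.

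Collagen receptors had 3 of 7 on the positive side (median 0.00). The integrin chain Itga1 differed by -0.50 (SE 0.22, unadjusted p = 0.0487 and adjusted p = 0.704 in limma). Itgb1 differed by -0.20, Itga10 by 0.25 and the uptake receptor Mrc2 by 0.24. Itga10 was the 1 gene of the 7 with separate groups, with noise-exposed higher, beside 10.4% of all genes. Breakdown enzymes and their inhibitors had 4 of 9 (median 0.00), with Mmp2 at 0.28, Mmp14 at -0.17, Timp2 at 0.32 and Timp4 at -0.37. Groups were separate for Timp2, with noise-exposed higher, and for Mmp14, with noise-exposed lower. That made 1 of 9 genes in each direction, beside 10.4% of all genes higher and 3.41% lower. In the tectorial membrane, where types II, IX and XI also occur, the glycoprotein genes Tecta and Tectb were not above the cutoff on any array. Otog measured 4.58, 5.01 and 5.23 in noise-exposed and 4.68, 4.24 and 3.21 in unexposed mice, so unexposed mice 2 and 3 were below the cutoff. Its fitted difference of 0.90 (SE 0.37, adjusted p = 0.704 in limma) was thus set against values mostly at background. It was 0.48 without unexposed mouse 3 and 0.26 on the first day alone.

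Markers of matrix-forming cells are set beside the collagens. Chondrocyte markers were on the positive side for 5 of 8 tested genes (median 0.17), and their summed linear signal was 4175 to 4952 in noise-exposed and 4246 to 4359.6 in unexposed mice. Acan differed by 0.27, Ucma by 0.53, Hapln1 by -0.23 and Epyc by -0.997 (SE 0.64), while Comp, Matn1 and Snorc were below the cutoff on every array. The Ucma probe set is of the type that can match several transcripts. Hapln1 was the 1 tested gene of this list with separate groups, every noise-exposed value being lower, beside 3.41% of all genes. Epyc measured 5.30, 4.00 and 6.64 in noise-exposed and 5.74, 6.03 and 7.16 in unexposed mice, with noise-exposed mouse 2 below the cutoff. With 1 mouse left out, its difference ranged from -1.66 (without noise-exposed mouse 3) to -0.34 (without noise-exposed mouse 2). That of Acan ranged from 0.02 (without noise-exposed mouse 1) to 0.41. Osteoblast and osteocyte markers were on the positive side for 6 of 7 (median 0.25), with sums of 2501 to 3218 in noise-exposed and 2349 to 3624 in unexposed mice. Sp7 differed by 0.34, Ibsp by 0.57, Phex by 0.31 and Sost by 0.25. Dmp1, the brightest of these markers, was the 1 gene on the other side, at -0.14 (SE 0.20). Fibroblast markers were on the positive side for 4 of 5 (median 0.07), endothelial markers for 6 of 8 (median 0.10), and pericyte and smooth muscle markers for 3 of 7 (median -0.19). Without noise-exposed mouse 3 the chondrocyte median was -0.08, with 3 of 8 genes on the positive side. On the first day alone the osteoblast median was -0.11, with 3 of 7. Among females the fibroblast median was -0.09 and the endothelial median -0.22. With sex as a covariate, 2 of 5 fibroblast and 2 of 8 endothelial markers were on the positive side.

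Central glia markers were on the positive side for 5 of 5 (median 0.23), with sums of 4214 to 5178 in noise-exposed and 2769 to 4465 in unexposed mice. Mobp, a myelin gene of oligodendrocytes, measured 10.47, 10.74 and 10.74 in noise-exposed and 9.52, 10.00 and 10.08 in unexposed mice, without overlap. Its difference of 0.78 (SE 0.19, unadjusted p = 0.0037 and adjusted p = 0.667 in limma) exceeded that of every tested collagen gene. Mog, another oligodendrocyte gene, differed by 0.51 (SE 0.19) and also had separate groups. That made 2 of 5 central glia genes with every noise-exposed value higher, beside 10.4% of all genes. With sex as a covariate, 3 of 5 were on the positive side. The median of the list was 0.04 without unexposed mouse 1 and 0.63 on the first day alone, where that mouse is the lone control.

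Schwann and satellite glia markers were on the positive side for 3 of 4 (median 0.16), with Sox10 at 0.46 and Cdh19 at 0.24, the second without overlap. Macrophage markers were on the positive side for 3 of 4 (median 0.21), and Tyrobp had separate groups with a difference of 0.50 (SE 0.14, adjusted p = 0.667 in limma). Neuronal markers were on the positive side for 4 of 6 (median 0.08), and Tubb3 had separate groups with a difference of 0.48 (SE 0.15, adjusted p = 0.667 in limma). Separate groups were thus found for 1 of 4 Schwann and satellite glia, 1 of 4 macrophage and 1 of 6 neuronal genes, beside 10.4% of all genes. Among females the macrophage median was -0.22, and with sex as a covariate 1 of 4 genes was on the positive side. The neuronal median was -0.09 on the first day alone. The sums of these marker lists overlapped between groups in each case, and their part in the collagen differences was not tested.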

How the data were processed

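Messenger RNA of the modioli of 6 mice, 3 noise-exposed and 3 unexposed, was measured on 1 Affymetrix array per mouse, and this number of arrays limits the precision. The groups and replicate numbers came from the labels, which describe separate animals. The authors deposited log2 signals, 1 per probe set. Per the deposited code file they were made by robust multi-array averaging with R 2.6.1 and Bioconductor 2.1. This method normalizes all arrays to 1 distribution, so a shift of most transcripts would not show.

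Of 45101 probe sets, 34958 had 1 gene symbol. The 64 control probe sets were left out. Probe sets above 4.25 on at least 3 arrays were tested in limma 3.58.1 under R 4.3.3 with a two-sided moderated test, and a Benjamini-Hochberg adjusted p under 0.05 counted as a call. The scripts were tested on simulated data. An exact permutation test of 3 against 3 mice cannot go below p = 0.1.

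The members and the gene lists were chosen with earlier results of these data known. Per-array values are given for collagen genes with an unadjusted p under 0.05, the 4 brightest and the main chains of each class, plus 1 further gene, Col14a1, whose probe sets disagree. From each other list at most 4 tested genes with the lowest unadjusted p are named. Exceptions named after their values were seen are Agrn, whose groups do not overlap, Dmp1, the 1 lower gene of its list, and genes not above the cutoff. Alternatives changed the cutoff, the centring, covariates for day and sex, array weights, the probe set, a replicate block and each array in turn.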

Additional observations from a re-analysis of the deposited data

How the results depend on the processing

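With 3 arrays per group and no called collagen gene, the size of a collagen difference depends on single mice, and for some genes so does its sign. Under 20 alternatives 0 collagen genes were called, with a lowest adjusted p of 0.158, and between 18 of 31 genes (among females) and 25 of 31 (without noise-exposed replicate 2 or unexposed replicate 2) were on the positive side. With no signal filter it was 27 of 40. The median collagen difference was 0.0495 with sex as a covariate and among females. All noise-exposed mice were female and of the first day. The covariate for day therefore gave the same differences as the first day alone, resting on unexposed mouse 1. Likewise the covariate for sex gave those among females, resting on unexposed mouse 2. Probe sets called numbered 3 on the first day and 15 without unexposed replicate 2. Leaving out each replicate in turn gave 0 to 15 called probe sets, 0 called collagen genes, 22 to 25 collagen genes on the positive side, a median of 0.13 to 0.24 and 28 to 30 genes detected on all arrays. Detection was 31 genes at 3 arrays and 25 at a cutoff of 5.1. The sign turned with day as a covariate and on the first day alone for Col4a4 (0.33), Col5a2 (0.14), Col9a1 (-0.10), Col9a2 (-0.0185), Acan (-0.0220), Timp4 (0.0792) and Phex (-0.14). With sex as a covariate and among females it turned for Col6a1 (-0.00015), Col8a1 (0.0069), Col9a3 (-0.20), Plod2 (0.0832) and Sost (-0.0145). It also turned for Col5a2 with arrays centred on their median (0.0162), for Col5a1 with array weights (-0.0301), and with the second probe set for Col3a1 (-0.25), Col6a2 (-0.0942) and Col9a1 (-0.16). Leaving out 1 replicate in turn changed the sign of Col5a1 (-0.0034 to 0.329), Col5a2 (-0.165 to 0.0833) and Col4a4 (-0.330 to 0.102). The cause was not tested. Of 21 named tested collagen genes, 11 had no change of sign. For all of these except Col4a1, the noise-exposed mean lay outside the range of the unexposed values. The settings that rest on a single unexposed mouse could therefore not turn those signs. Samples with the same replicate number did not deviate together (correlations 0.094, 0.025 and -0.038). With a replicate block, 0 probe sets were called, 1787 had an unadjusted p under 0.05, and the lowest collagen adjusted p was 0.686.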
